A study of Mus musculus with 19 samples.

Results

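Txnip and the arrestin-domain genes Arrdc1, Arrdc2, Arrdc3 and Arrdc4 encode α-arrestins, and their mRNA levels were read on 19 microarrays of sorted mouse thymocytes with and without Rptor, which encodes Raptor, a subunit of mTORC1. These 5 of 22180 genes were chosen by a rule that used the measured genotype differences, since the family was taken up because Arrdc4 was higher without Rptor in each of 3 thymocyte populations. The differences between genotypes below therefore describe the members and are given with no test. Each gene was read by 1 probe set that carries its symbol alone, and all 5 were measured on every array with no filter on low values.

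α-Arrestins are cytosolic adaptors with an arrestin fold. Short proline-rich motifs in their tails bind ubiquitin ligases of the Nedd4 family and bring them to membrane proteins, which are then ubiquitinated and taken inside the cell. Txnip also binds thioredoxin, and both Txnip and Arrdc4 hold back glucose uptake by removing glucose transporters from the cell surface. Both genes are known targets of MondoA and ChREBP, factors that pair with Mlx and are switched on by phosphorylated sugars. mTORC1 is the kinase complex through which nutrients and growth factors promote protein synthesis and cell growth, and Raptor is the subunit that presents its substrates.

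All cells came from the thymus of C57BL/6 mice. WT mice were the controls. The Rptor-/- cells came from a cross of CD2-cre mice with mice carrying a floxed Rptor gene (Raptorfl/fl), in which the Cre is expressed in lymphocytes. The labels name no Cre for the WT mice, so the deletion and the presence of Cre cannot be told apart here, and no age is given in the sources used here. DN3a thymocytes, which precede the split into the αβ and γδ lineages, were sorted as CD25-high cells lacking CD4, CD8, CD44, CD28 and both T-cell receptors. Immature single-positive (ISP) cells, an intermediate of the αβ branch, were CD8-positive without CD4 and TCRβ. The γδ T-cell gate left out cells with CD4 or CD8, with TCRβ, and with NK1.1 or Gr1. ISP cells were read on 4 WT and 3 Rptor-/- arrays, and DN3a and γδ T cells on 3 arrays of either genotype each. The labels do not say whether the arrays of a group came from separate animals, so the p-values measure only how far these samples spread, a spread that may be technical. In RNA of whole sorted populations, fewer cells of a type and less RNA per cell cannot be told apart.

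The values are log2 expression levels. The ISP arrays had medians of 3.80 to 3.88 and the other arrays 6.03 to 6.13, so ISP levels were compared with ISP levels only. Levels of different probe sets were not set against each other. Rptor fell in the Rptor-/- groups by 0.24 in ISP cells (limma adjusted p = 0.0384), 0.58 in DN3a cells (adjusted p = 0.000598) and 0.30 in γδ T cells (adjusted p = 0.0489). The DN3a and γδ groups did not overlap. The ISP groups did, with 6.34 on both Rptor-/- array 3 and WT array 3. The ISP call was lost with the replicate block (adjusted p = 0.102), the compared arrays alone (0.128) and quantile normalization (0.0865). The γδ call was lost with the block (0.0738), the compared arrays alone (0.114) and median centring (0.102). Leaving out Rptor-/- array 1 or 2 or WT array 1, 2 or 4 ended the ISP call, with an adjusted p of up to 0.22. Leaving out any 1 of the 6 γδ arrays ended the γδ call, with an adjusted p of up to 0.156. The sources used here do not say where the probe set lies relative to the floxed part of Rptor. All 5 measured DN3a markers were lower in WT γδ than in WT DN3a cells, with a median difference of -3.48, and 5 of 6 γδ markers were higher, with a median of 2.80.

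The promoters of Txnip and Arrdc4 are shown because these are the members with non-overlapping genotype groups in every population and the ones known to answer to sugar-sensing factors. The windows are the 250 bases before the annotated start in RefSeq (GRCm38.p6), 5′ to 3′ on the gene's strand. They lie at chr3:96557707-96557956 on the plus strand for Txnip and at chr7:68749239-68749488 on the minus strand for Arrdc4. Capitals mark every match, on either strand, to the E box CACGTG, to a carbohydrate response element written as a pair of CACGNG half-sites 5 bases apart, to the forkhead motif GTAAACA and to the CCAAT box. CACGTG is itself 1 of the forms of CACGNG.

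Txnip: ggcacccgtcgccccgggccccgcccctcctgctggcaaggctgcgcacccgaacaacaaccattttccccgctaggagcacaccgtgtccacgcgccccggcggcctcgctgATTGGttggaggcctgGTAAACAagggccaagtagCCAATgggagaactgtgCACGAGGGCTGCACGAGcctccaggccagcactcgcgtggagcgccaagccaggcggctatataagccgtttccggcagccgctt

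Arrdc4: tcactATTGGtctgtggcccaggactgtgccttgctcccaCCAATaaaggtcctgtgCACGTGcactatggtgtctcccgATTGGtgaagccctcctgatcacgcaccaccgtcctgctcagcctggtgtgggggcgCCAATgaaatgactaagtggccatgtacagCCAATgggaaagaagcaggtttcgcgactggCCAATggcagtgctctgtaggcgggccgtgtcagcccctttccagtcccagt

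The Txnip window held 1 carbohydrate response element, which began 85 bases before the start. MondoA and ChREBP bind such elements together with Mlx. Such an element stood in 15 of 32851 promoter windows of the same length, or 0.0457%. The Txnip window also held 2 CCAAT boxes, 137 and 102 bases before the start on opposite strands, and between them 1 forkhead match, 121 bases before the start. A forkhead match was present in 3.17% of all windows. The Arrdc4 window held 1 E box, 193 bases before the start, a motif found in 6.02% of windows. It held 6 CCAAT boxes, which began 245, 210, 170, 113, 83 and 52 bases before the start. At least 6, a cut-off set to the count in this window, occurred in 19 windows, or 0.0578%. At least 2, as in the Txnip window, occurred in 10.1%, and at least 1 in 33.8%. No carbohydrate element with this spacing was found in the Arrdc4 window. The Arrdc2 window held 3 CCAAT boxes, 2 overlapping windows of the 3 of Arrdc3 shared 1, and the Arrdc1 window held no match to any of the 4 motifs. These matches describe letters in the windows and say nothing about whether a factor was bound there.

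**Figure D1:**
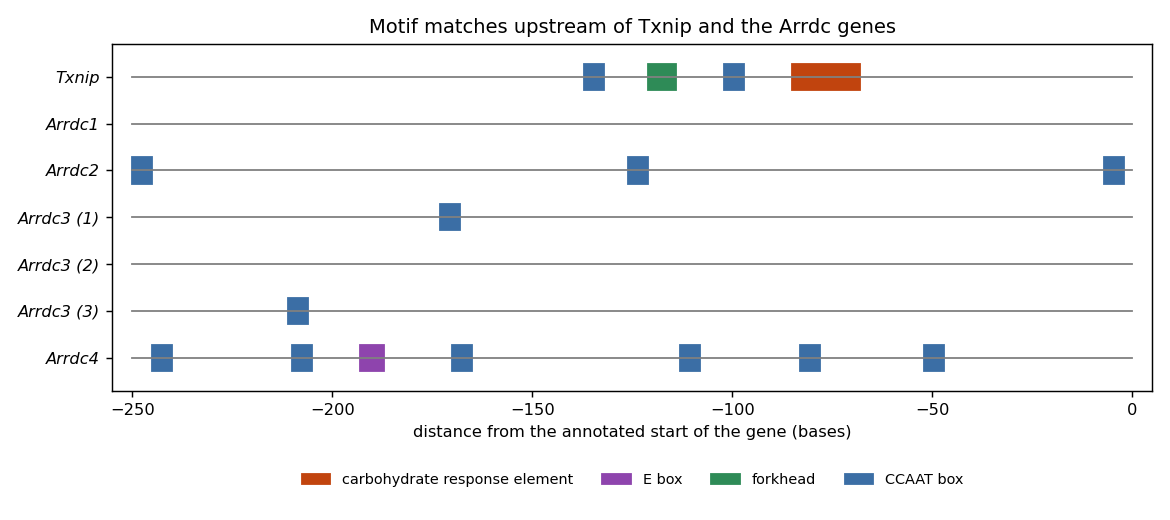
Motif matches in the 250 bases before each annotated start of the 5 members. The horizontal axis is the distance from the start in bases, each row is a promoter window and each mark is a match. The Txnip window holds the only carbohydrate response element and forkhead match among them, and the Arrdc4 window holds the E box and 6 CCAAT boxes.

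Txnip, the thioredoxin-binding member, was higher without Rptor on every array of each population. Another probe set, shared with Gm15441, overlapped between genotypes in ISP and γδ T cells and is given at the end. In ISP cells the WT arrays read 8.61, 8.22, 8.39 and 8.78, and the Rptor-/- arrays read 9.87, 9.92 and 9.98. The groups did not overlap, and the lowest Rptor-/- array lay above the highest WT array by more than the whole WT range. The difference was 1.42 with a standard error (SE) of 0.11 from the limma fit, or 2.68-fold. In DN3a cells the WT arrays read 11.74, 11.66 and 11.38 and the Rptor-/- arrays 12.05, 12.03 and 11.94. WT array 3 was the lowest, and again no arrays overlapped. The difference was 0.41 (SE 0.11), or 1.33-fold. The γδ WT arrays read 11.84, 11.80 and 11.81, and the Rptor-/- arrays read 12.18, 12.05 and 12.11. The WT arrays lay close together, with an SD of 0.02, and all of them were below the Rptor-/- arrays. The difference was 0.30 (SE 0.11), or 1.23-fold.

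Arrdc4, the closest relative of Txnip in its action on glucose transporters, was higher without Rptor by 1.66-fold in DN3a cells and 1.85-fold in γδ T cells. In ISP cells the WT arrays read 4.01, 4.04, 3.74 and 3.42, around the median of these arrays, and the Rptor-/- arrays read 4.57, 5.14 and 4.57. Rptor-/- array 2 was the highest, WT array 4 the lowest, and the groups did not overlap. The difference was 0.96 (SE 0.16). No fold is given there, since a probe set this dim gives a compressed one. In DN3a cells the WT arrays read 6.96, 6.57 and 6.58 and the Rptor-/- arrays 7.43, 7.35 and 7.51, without overlap. The difference was 0.73 (SE 0.17). In γδ T cells the WT arrays read 7.20, 6.92 and 6.71 and the Rptor-/- arrays 8.02, 7.79 and 7.68. The difference was 0.89 (SE 0.17), and array 1 was the highest of either genotype. The choice of the family rested on a limma call of Arrdc4 as higher in all 3 populations, a property of 9 genes, or 0.0406% of those measured. The others were Afdn, Blcap, Dtx1, Ifih1, Igtp, Iigp1, Plin2 and Tnfrsf18. Since that call made the choice, it is no test of Arrdc4. In all, 147 genes (0.663%), Txnip and Arrdc4 among them, had every Rptor-/- array above every WT array in all 3 populations.

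**Figure D2:**
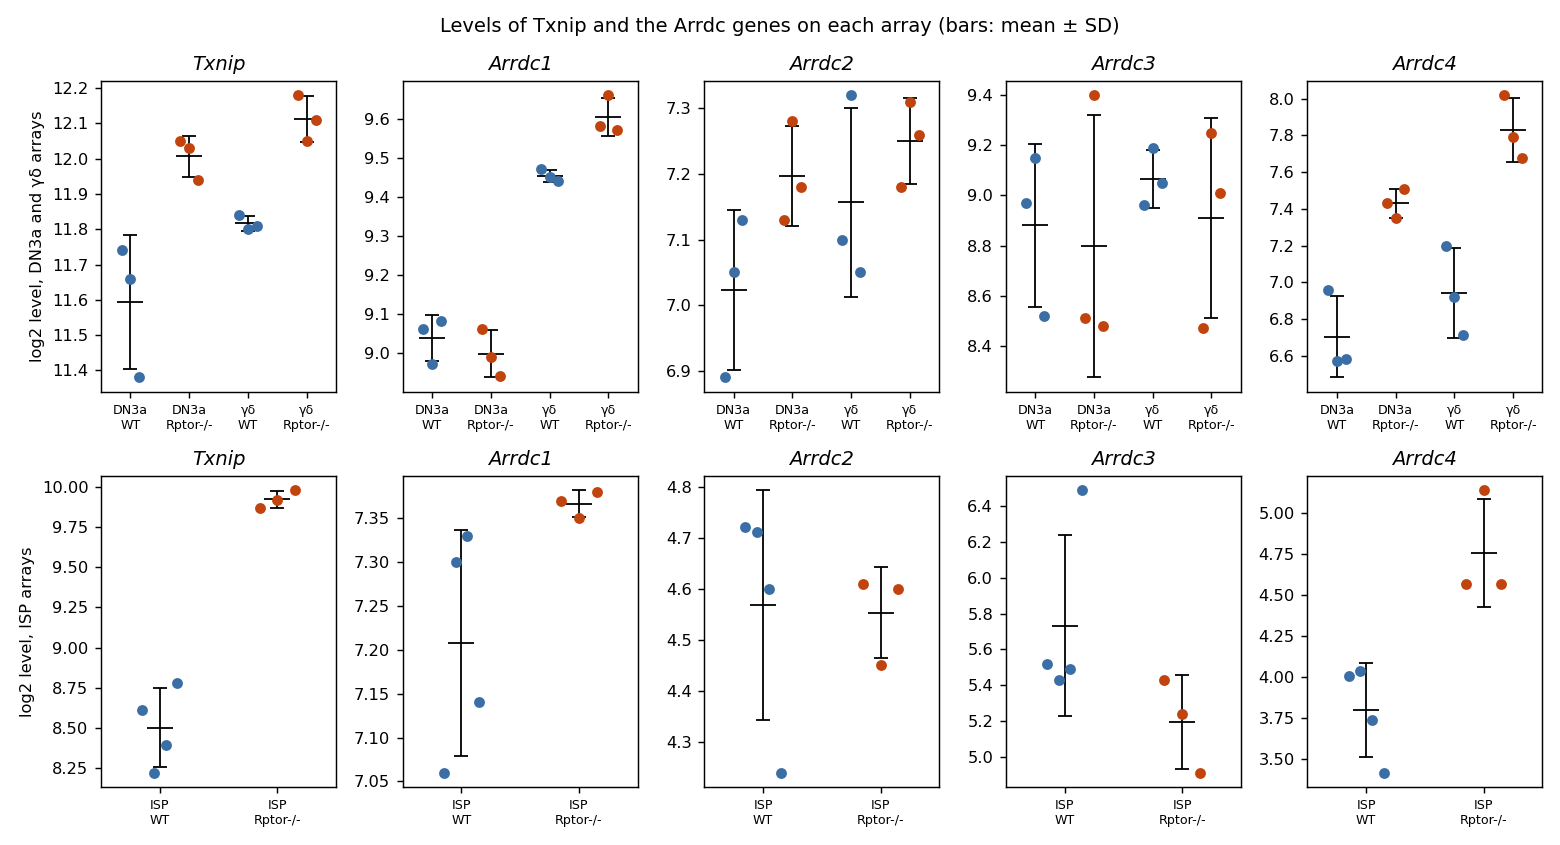
Log2 expression level of each member on every array, by population and genotype. Points are single arrays and short lines are group means. ISP arrays were treated as normalized apart from the others, so levels were compared between genotypes and between DN3a and γδ T cells but not between ISP cells and the rest. Txnip and Arrdc4 have every Rptor-/- point above every WT point in each population.

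Arrdc1 recruits Nedd4-family ligases to the plasma membrane and, through Tsg101, drives the budding of small vesicles from it. In ISP cells its WT arrays read 7.06, 7.30, 7.33 and 7.14 and its Rptor-/- arrays 7.37, 7.35 and 7.38. The groups were separated by only a small gap, and the difference was 0.16 (SE 0.07), or 1.11-fold. In DN3a cells the WT arrays read 9.06, 8.97 and 9.08 and the Rptor-/- arrays 9.06, 8.99 and 8.94. The groups overlapped, with a difference of -0.04 (SE 0.07). The γδ WT arrays read 9.47, 9.45 and 9.44 and the Rptor-/- arrays 9.58, 9.66 and 9.57. They did not overlap, and the difference was 0.15 (SE 0.07), or 1.11-fold.

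Arrdc2 is a less studied member of the family. Its ISP arrays read 4.72, 4.71, 4.60 and 4.24 in WT and 4.61, 4.45 and 4.60 in Rptor-/- cells. The Rptor-/- arrays lay within the WT range, and the difference was -0.01 (SE 0.10), from -0.12 to 0.04 with single arrays left out. In DN3a cells the WT arrays read 6.89, 7.05 and 7.13 and the Rptor-/- arrays 7.13, 7.28 and 7.18. WT array 3 and Rptor-/- array 1 both read 7.13, and the difference was 0.17 (SE 0.11). The γδ WT arrays read 7.10, 7.32 and 7.05 and Rptor-/- arrays 7.18, 7.31 and 7.26. The groups overlapped, with a difference of 0.10 (SE 0.11).

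Arrdc3, an adaptor for receptor ubiquitination that is known for its part in whole-body energy use, had the largest standard errors of the 5 members. In ISP cells the WT arrays read 5.52, 5.43, 5.49 and 6.49 and the Rptor-/- arrays 5.43, 5.24 and 4.91. WT array 4 stood apart from the rest. The difference was -0.54 (SE 0.25) with it and -0.29 without it. In DN3a cells the WT arrays read 8.97, 9.15 and 8.52 and the Rptor-/- arrays 8.51, 9.40 and 8.48. Array 2 was the highest in both genotypes, and the difference was -0.08 (SE 0.27). The γδ WT arrays read 8.96, 9.19 and 9.05 and the Rptor-/- arrays 8.47, 9.25 and 9.01. Array 2 was again the highest in both genotypes, and the difference was -0.16 (SE 0.27). The sign turned in DN3a cells without Rptor-/- array 1 (0.06), Rptor-/- array 3 (0.08) or WT array 2 (0.05), and it was -0.38 without Rptor-/- array 2. In γδ T cells it turned without Rptor-/- array 1 (0.06), and it was -0.33 without Rptor-/- array 2.

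Counted together, 3 of the 5 members had all Rptor-/- arrays above all WT arrays in ISP cells (Txnip, Arrdc1 and Arrdc4), 2 in DN3a cells (Txnip and Arrdc4) and 3 in γδ T cells (Txnip, Arrdc1 and Arrdc4). Over all genes this held for 7.75% in ISP, 10.4% in DN3a and 12.2% in γδ T cells. No member had all Rptor-/- arrays below all WT arrays in any population. The share of all genes in that direction is not given here, so no meaning is read from this. The median difference of the 5 members was 0.156, 0.172 and 0.150 in ISP, DN3a and γδ T cells, against -0.004, 0.011 and 0.004 over all genes. The members were picked from these differences, so the counts support nothing further. Markers of the other thymocyte stages differed in the same comparisons. In Rptor-/- ISP cells 3 of 5 DN3a markers rose (Ptcra by 0.63, Notch1 by 0.56 and Il2ra by 0.48) and Hes1 fell by 0.98. The mean over the DN3a list was 7.87 to 7.88 on Rptor-/- and 7.57 to 7.76 on WT ISP arrays. Il7r, 1 of 6 genes on the γδ list, was lower there by a difference of -1.68. It did not set γδ cells apart from DN3a cells here, with a WT difference of -0.04 (limma adjusted p = 0.94). In DN3a cells Ptcra rose by 0.68, Sox13 by 0.51 and Maf by 0.37, and the DN3a list mean was 10.74 to 10.77 on Rptor-/- and 10.33 to 10.43 on WT arrays. Zbtb16, a γδ marker, rose by 0.74 in Rptor-/- γδ T cells. Of 4 general T-cell markers, Cd3e rose by 0.22 in ISP and Cd3d by 0.43 in DN3a cells. Markers of cells outside these stages that passed were Lyz2, a myeloid gene, higher by 1.04 in Rptor-/- DN3a cells, and Epcam, an epithelial gene, higher by 0.67 there. They were 1 of 6 myeloid and 1 of 5 stromal markers measured. The mean over the myeloid list was 5.60 to 5.77 on Rptor-/- and 5.52 to 5.74 on WT DN3a arrays, and over the stromal list 6.95 to 7.11 and 6.84 to 6.93. In Rptor-/- γδ T cells Gzma, 1 of 6 markers of natural killer cells, was lower by a difference of -0.37, and Cd8b1 and Cd8a, among 3 ISP markers, by -1.72 and -0.53. The mean over the ISP list was 5.99 to 6.40 on Rptor-/- and 6.93 to 7.16 on WT γδ arrays. None of the 4 B-cell and 5 dendritic-cell markers measured passed limma's test in any population, and at an unadjusted p under 0.05 there were at most 1 B-cell and 2 dendritic-cell markers in a population. Their part in the members' differences was not tested.

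**Figure D3:**
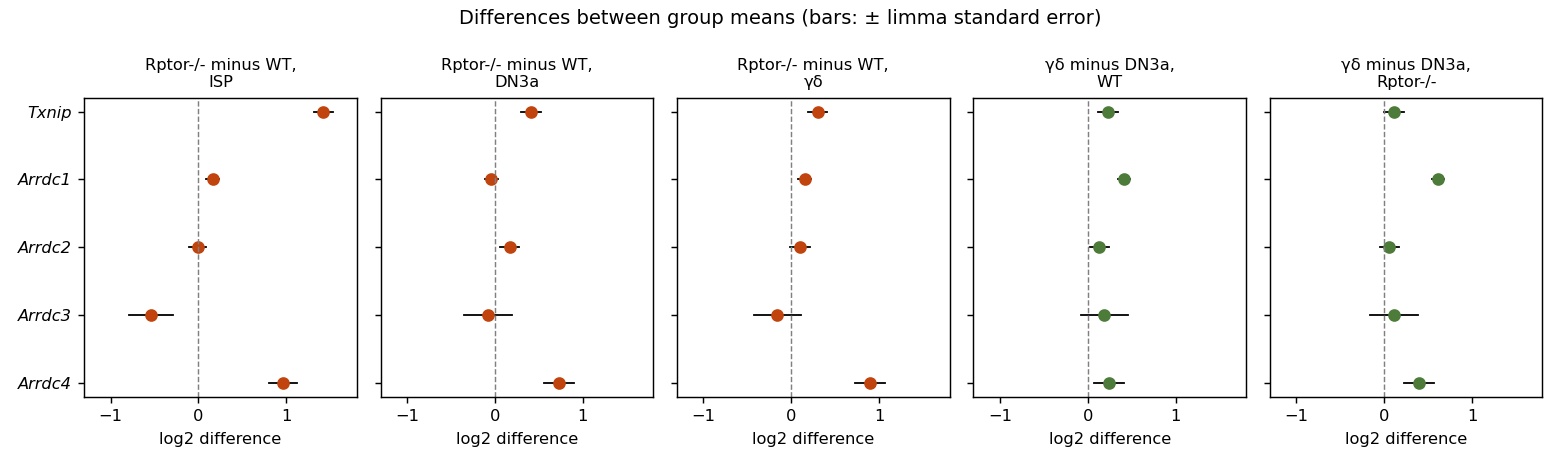
Log2 difference of group means for each member in the 3 genotype comparisons (Rptor-/- minus WT) and in the comparison of γδ T cells with DN3a cells within each genotype. Points are differences and bars are plus and minus 1 limma standard error. Txnip and Arrdc4 lie to the right of 0 in each genotype panel, and Arrdc1 is the member farthest to the right between γδ T cells and DN3a cells.

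The step from DN3a to γδ T cells was not used to choose the members and could be tested. In WT cells 1 of the 5 members rose in γδ T cells, against 25.1% of all genes called in either direction. Arrdc1 was higher by 0.41 (95% interval 0.26 to 0.57, limma adjusted p = 0.00023), which is 1.33-fold, with all 3 γδ arrays above all 3 DN3a arrays. With 3 arrays against 3, the exact two-sided permutation test cannot go below p = 0.1, and this is the value it gave for Arrdc1. The other members did not pass the test. Txnip differed by 0.23 (interval -0.01 to 0.46, adjusted p = 0.183), and its groups did not overlap. The share of all genes without overlap along this step was not counted, so no meaning is read from it. Arrdc4 differed by 0.24 (-0.12 to 0.60, adjusted p = 0.384), Arrdc3 by 0.19 (-0.38 to 0.76, adjusted p = 0.717) and Arrdc2 by 0.13 (-0.10 to 0.36, adjusted p = 0.486), each with overlapping arrays. All 5 differences were above 0, with a median of 0.225 against -0.004 over all genes. The intervals of Txnip, Arrdc3 and Arrdc4 reach beyond the difference of Arrdc1.

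In Rptor-/- cells Arrdc1 rose again from DN3a to γδ T cells, by 0.61 (interval 0.45 to 0.76, limma adjusted p = 2.33e-06), or 1.52-fold. It was the 1 member of 5 that passed, against 27.6% of all genes. Arrdc4 differed by 0.40 (interval 0.04 to 0.76). Its groups did not overlap, and here too the share over all genes was not counted. The adjusted p of 0.0966 for Arrdc4 missed the threshold in the limma fit over all arrays. It passed (0.0249) when the compared arrays were fitted alone. Txnip differed by 0.11 (-0.13 to 0.35, adjusted p = 0.548), Arrdc3 by 0.11 (-0.46 to 0.68, adjusted p = 0.809) and Arrdc2 by 0.06 (-0.17 to 0.29, adjusted p = 0.762). The WT and Rptor-/- steps share no arrays, and whether they differ was not tested. Markers of other cells changed along the same step. Of 6 natural killer cell markers, 5 rose in WT cells (median 1.22) and 4 in Rptor-/- cells (median 0.89). The list mean was 8.06 to 8.12 on WT γδ and 6.95 to 7.02 on WT DN3a arrays, and 7.91 to 8.10 and 6.96 to 7.10 on Rptor-/- arrays. In WT and Rptor-/- cells respectively, the myeloid gene Lyz2 differed by -0.89 and -1.95, the epithelial gene Epcam by -0.92 and -1.32 and the B-cell gene Cd79b by -0.45 and -0.66, and all of these passed. The dendritic-cell gene H2-Aa rose by 0.74 and 0.94. Cd8b1 rose by 1.47 in WT cells, and Slc4a1, the 1 erythroid marker measured, fell by 0.39 in Rptor-/- cells. Of the 4 general T-cell markers 2 fell in WT and 3 in Rptor-/- cells. Their part in the difference of Arrdc1 was not tested.

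The members' variation was also set side by side. Over the 19 arrays, with each value taken from the mean of its population, Pearson's r between Txnip and Arrdc4 was 0.73. Taken from the mean of their own genotype group it was -0.17. The corresponding values were 0.53 and 0.05 for Arrdc1 with Arrdc4, and -0.52 and -0.44 for Arrdc3 with Arrdc4. Txnip gave 0.43 and -0.60 with Arrdc1, -0.05 and -0.65 with Arrdc2, and -0.33 and 0.46 with Arrdc3. The other 4 pairs lay between -0.44 and 0.30 by either measure. The points share arrays and normalization and the first value includes the genotype difference itself, so these are descriptions.

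Likeness to all other genes was taken from the population mean, so it includes the genotype difference. By that measure, the genes most like Arrdc4 over the 19 arrays were Tnfrsf18, the costimulatory receptor GITR (r = 0.90), and Nr1d2, a clock repressor (0.88). Next came Repin1 (0.86), Igtp, an interferon-inducible GTPase (0.86), Dtx1, a regulator of Notch signalling (0.85), and Ldb1, a transcriptional cofactor (0.85). Of these, Dtx1 had genotype differences of 1.81 in ISP, 1.38 in DN3a and 0.57 in γδ T cells, and Tnfrsf18 of 0.77, 0.50 and 0.56. For Ldb1 the differences were 0.15, 0.16 and 0.10. Those most like Txnip were Samd9l, an interferon-inducible gene (r = 0.98), Uba7, the activating enzyme of the ubiquitin-like protein ISG15 (0.97), Bcl2, the survival factor (0.96), Ifngr1, an interferon-γ receptor chain (0.95), Pglyrp2 (0.95) and Adcy6, an adenylate cyclase (0.95). Samd9l had genotype differences of 1.20, 0.47 and 0.27, and Bcl2 of 1.15, 0.18 and 0.44 in the same order of populations. Those of Ifngr1 were 1.11, 0.20 and 0.02, and those of Adcy6 0.83, 0.19 and 0.03. Uba7 had 0.99, 0.15 and 0.27, and Pglyrp2 1.15, 0.49 and 0.15. Each of these genes differed most in ISP cells. No gene appeared in both sets of 6.

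The pathway around the family was followed in 53 genes, of which 49 were measured. In ISP cells 6 rose and 5 fell without Rptor (limma, adjusted p under 0.05), or 22.4% against 12.4% of all genes. That count was 6 without Rptor-/- array 3, and 3 when the ISP arrays were fitted alone. In DN3a cells no list gene passed, against 0.983% of all genes, and 6 higher and 1 lower gene had an unadjusted limma p under 0.05. In γδ T cells 2 rose and 1 fell, or 6.12% against 3.05%, and 1 was left without Rptor-/- array 2 or when the γδ arrays were fitted alone. The lists describe the pathway and were not compared with other genes by a test.

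Of the sugar-sensing factors Mlx, Mlxip (MondoA) and Mlxipl (ChREBP), none of the 3 passed in any genotype comparison by limma, and 1, Mlx in DN3a cells (0.17), had an unadjusted p under 0.05. In ISP cells Mlx differed by -0.02, Mlxip by -0.17 and Mlxipl by 0.07. Of the 4 forkhead factors measured, Foxo1 rose in Rptor-/- ISP cells by 0.94 (SE 0.10, limma adjusted p = 3.1e-06) and Foxo3 by 0.33 (SE 0.09, adjusted p = 0.013). These factors are held out of the nucleus by the kinase Akt and switch on genes of quiescence. The Foxo3 call was lost without Rptor-/- array 2 (0.28, adjusted p = 0.0853), with quantile normalization (0.0696) and when the ISP arrays were fitted alone (0.0899). Neither gene passed in the other populations. Foxo3 differed by 0.28 in DN3a cells (limma adjusted p = 0.22) and 0.26 in γδ T cells (0.16), without overlap of the groups. Foxo1 differed by 0.08 and 0.19, with overlap.

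In the thioredoxin system, the redox partner of Txnip, 2 of the 8 genes measured fell in ISP cells and none rose, with a median difference of -0.253. Prdx2, a cytosolic peroxiredoxin, fell by 0.29 (SE 0.06, limma adjusted p = 0.0022). Prdx3, the mitochondrial one, fell by 0.41 (SE 0.11, adjusted p = 0.015), a call lost without Rptor-/- array 3 (-0.27, adjusted p = 0.147), with quantile normalization (0.0608) and with the ISP arrays alone (0.103). Thioredoxin itself, Txn1, did not pass. It differed by -0.22 in ISP cells (adjusted p = 0.17), by -0.11 in DN3a cells and by -0.25 in the γδ population (adjusted p = 0.22). In γδ T cells Prdx4, a peroxiredoxin of the endoplasmic reticulum, fell by 0.80 (SE 0.16, adjusted p = 0.0081), and the mitochondrial reductase Txnrd2 rose by 0.37 (SE 0.09, adjusted p = 0.039). The Prdx4 call was lost without Rptor-/- array 2 (adjusted p = 0.0619), without WT array 2 (0.0501) and with the γδ arrays fitted alone (0.0545). Leaving out any 1 of the 6 γδ arrays other than WT array 2 ended the Txnrd2 call, with an adjusted p of up to 0.17. It was lost too with the γδ arrays alone (0.128).

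Among the 11 ligases and adaptors that α-arrestins work with, 2 rose in ISP cells and none fell. Ndfip2, a membrane adaptor that activates these ligases, rose by 0.47 (SE 0.09, limma adjusted p = 0.00097), and the ligase Nedd4 by 0.31 (SE 0.07, adjusted p = 0.0062). The Nedd4 call was lost with the ISP arrays fitted alone (0.0635). Of the same genes 1 rose in γδ T cells, the ligase Smurf2, by 0.55 (SE 0.08, adjusted p = 0.00044), a call that held in every alternative run. Ndfip2 differed by 0.18 in DN3a cells (limma adjusted p = 0.52) and 0.34 in γδ T cells (0.056), without overlap of the groups, but did not pass. Nedd4 differed there by 0.03 and -0.05.

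Of 8 genes for glucose entry, 1 passed in ISP cells. Slc2a1 encodes GLUT1, a cargo that Txnip removes from the cell surface, and it fell by 0.23 (SE 0.08, limma adjusted p = 0.049). Leaving out any 1 of the 7 ISP arrays other than WT array 4 ended the call, with an adjusted p of up to 0.154. The call was lost too with the mean of all its probe sets (-0.18, adjusted p = 0.143). It was also lost with the ISP arrays alone (0.0774), median centring (0.0635) and quantile normalization (0.0669). Slc2a1 differed by 0.01 on DN3a arrays and -0.03 on γδ arrays. Hk2, the hexokinase that traps glucose after entry, differed by -0.31 in ISP cells (adjusted p = 0.1).

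Among 8 other genes of the arrestin fold, Arrdc5, the remaining α-arrestin gene, differed by 0.08 in ISP, 0.04 in DN3a and 0.10 in γδ T cells and did not pass. Among 7 partners and cargoes, Ddit4 fell in ISP cells by 1.13 (SE 0.21, limma adjusted p = 0.00097). Ddit4 encodes REDD1, a stress-induced inhibitor of mTORC1 that forms a complex with Txnip. Its call was lost when the ISP arrays were fitted alone (0.0686). In ISP cells the remaining calls of these last groups were Arrb1 and Insr, which rose by 0.28 and 0.26, and Vps26c, which fell by 0.31. Each call was lost with the ISP arrays fitted alone and without single arrays. Arrb1 also lost it with the replicate block (adjusted p = 0.097), median centring (0.0614) and quantile normalization (0.0958), and Insr with median centring (0.0811). The single arrays were Rptor-/- arrays 1 and 3 and WT arrays 2 and 4 for Arrb1 (adjusted p up to 0.253). They were all 3 Rptor-/- arrays and WT arrays 2 and 3 for Insr (up to 0.206), and Rptor-/- arrays 1 and 3 and WT arrays 1 and 3 for Vps26c (up to 0.131).

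**Figure D4:**
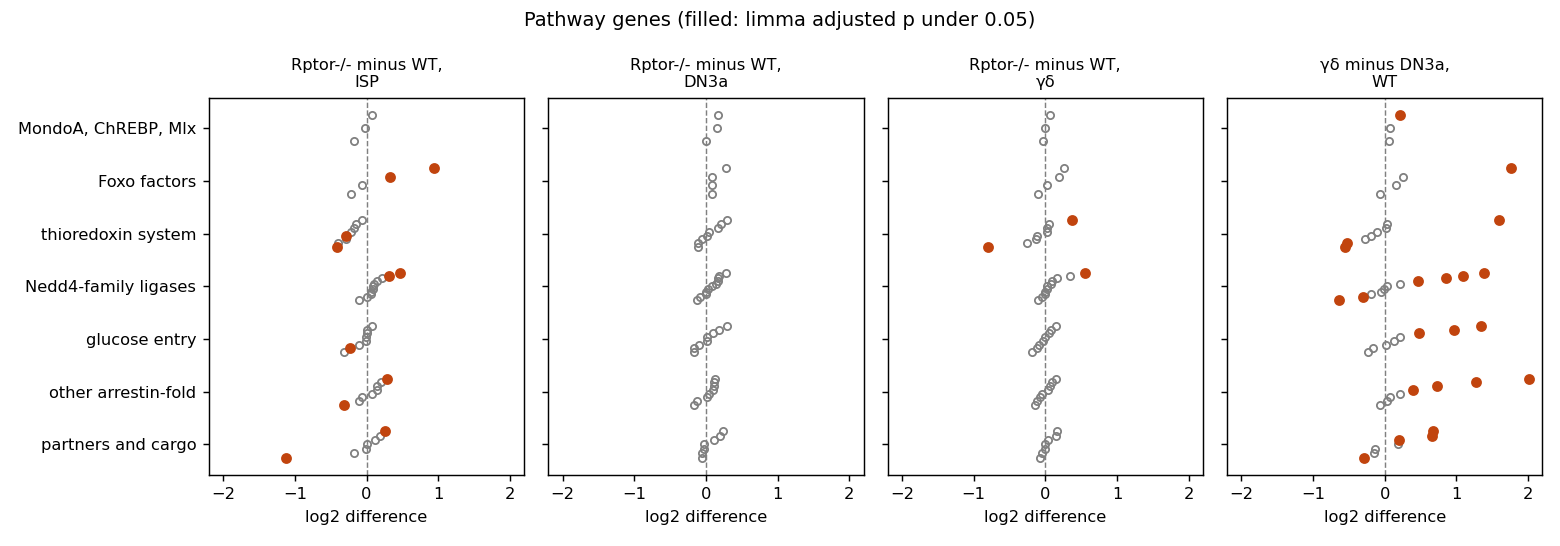
Log2 difference for the 49 measured pathway genes, grouped by list. The first panels compare Rptor-/- with WT in ISP, DN3a and γδ T cells, and the last compares WT γδ with WT DN3a cells. Filled points passed the limma test at an adjusted p of 0.05 and open points did not. Filled points number 11 in ISP cells, 0 in DN3a cells, 3 in γδ T cells and 22 in the last panel.

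Along the normal step from DN3a to γδ T cells 17 of the 49 genes rose and 5 fell, or 44.9% against 25.1% of all genes. The β-arrestins led the arrestin-fold genes. Arrb2 rose by 2.01 (limma adjusted p = 1.3e-13) and Arrb1 by 1.27 (adjusted p = 1.7e-09), and 4 of 8 genes of that group rose. Of the ligases and adaptors 4 of 11 rose and 2 fell. Ndfip1 rose by 1.38 (adjusted p = 7.8e-09), Smurf2 by 1.09 (1.9e-09) and Smurf1 by 0.85 (2.2e-07), and Nedd4l fell by 0.64 (2e-05). Of the glucose-entry genes 3 of 8 rose and none fell, with Slc2a3, which encodes GLUT3, up by 1.34 (3.4e-07) and Slc2a1 by 0.97 (1.1e-08). Foxo1 rose by 1.76 (7.5e-11). With the mean of all their probe sets, the rises of Slc2a1 and Foxo1 were 0.49 and 1.01 and still passed. In the thioredoxin system Prdx4 rose by 1.59 (2.1e-07), and Prdx3 and Txnrd3 fell by 0.53 and 0.56, the latter losing its call without WT DN3a array 3 (adjusted p = 0.0545) or WT γδ array 1 (0.0544). Arrdc5 differed by 0.07 and did not pass.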

How the data were processed

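RNA of sorted thymocytes (12 ng per array, amplified and biotin-labelled, per the labels' protocols) was read on 19 arrays. The deposited values are log2 levels per probe set, made by the authors with RMA in Partek 6.6, per the submitters' processing notes. The sources used here do not say which arrays were normalized as a set. Array medians separated the 7 ISP arrays from the other 12, so the 2 sets were treated as separate normalizations. Levels were compared only within each set. The main limma fit still took the variance of each gene from all 19 arrays. The standard errors and p-values of the ISP comparisons therefore rest partly on the DN3a and γδ arrays. Quantile normalization, run as an alternative, also joined the 2 sets. RMA compresses differences of dim probe sets, and the number of arrays limits precision.

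Of 41345 probe sets, 23521 had 1 gene symbol and were used, and 1814 with several symbols and 16010 unnamed ones were left out. For 23328 probe sets the symbol was taken from RefSeq (GRCm38.p6) by Entrez ID, whether or not it differed from the annotated one. This gave 22180 genes. For the 1082 with several probe sets, that of the highest mean was taken. Groups came from the sample titles.

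Tests used lmFit and eBayes of limma 3.58.1 (R 4.3.3) in 1 model of 6 group means over 19 arrays, with Benjamini-Hochberg adjustment over all genes and a threshold of 0.05. The fit was first tested on simulated data. Fold changes are 2 to the power of the log2 difference. The members and the gene lists were chosen with earlier results of these data known. Named genes were the 5 members, Rptor, up to 4 list genes with the smallest p per list and comparison among those that passed, and the 6 genes with the highest Pearson r to Arrdc4 and to Txnip, passing over predicted genes, clone names, olfactory and vomeronasal receptors and small RNAs. In the genotype comparisons all list calls were named. Along the step from DN3a to γδ T cells some were not, among them Mlx, Slc2a8 and all calls among the partners and cargoes. Promoter sequences came from a RefSeq table, in which all 5 members matched with 7 windows. Prdx1, Prdx5 and Prdx6 had no probe set with a single symbol here, and 1 list entry is not reported here. Alternatives were the arrays in the fit, a replicate block, 2 scalings, the mean of probe sets, a filter on dim genes, the variance prior and leaving out each array. Python 3.11.15 with matplotlib 3.10.9 drew the figures.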

Additional observations from a re-analysis of the deposited data

Results flagged for a closer look

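The 4 WT ISP arrays were searched for values far from the rest in 17 genes, and 2 genes had one. Chance alone flags about 1 in 20 groups. Arrdc3 read 6.49 on WT ISP array 4 and 5.43 to 5.52 on the other WT arrays, so the gap made up 0.915 of the range, above Dixon's critical value of 0.829. Rptor read 6.34 on WT ISP array 3 and 6.47 to 6.49 on the others, a gap of 0.863 of the range.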

How the results depend on the processing

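No difference that passed a test reversed. With quantile normalization across all arrays the genotype difference of Txnip was 1.22 in ISP and 0.36 in γδ T cells, and its WT difference between γδ and DN3a cells was 0.33 and passed (adjusted p = 0.0387). With each array centred on its median, the genotype difference of Arrdc1 in γδ T cells was 0.19. The Rptor-/- difference of Arrdc4 between γδ and DN3a cells, 0.40, passed with only the compared arrays (adjusted p = 0.0249) and with the replicate block (0.0421). By the exact permutation test the WT difference of Arrdc1, 0.41, had p = 0.1, the smallest that design allows. With only the compared arrays, 3 list genes passed in ISP cells and 1 in γδ T cells. Leaving out single arrays gave 6 to 10 list genes in ISP cells and 1 to 3 in γδ T cells. It gave differences of 1.33 to 1.52 for Txnip and 0.77 to 1.05 for Arrdc4 in ISP cells. Over all genes, arrays with the same replicate number deviated together weakly, with r from -0.104 to 0.257 over the 5 comparisons, and the main fit did not pair them. Single members could still share a pattern. Arrdc3 was highest on array 2 in both genotypes of DN3a and γδ T cells. In DN3a cells the replicate block moved the SE of its genotype difference from 0.27 to 0.19, and that of Arrdc1 from 0.07 to 0.08. With the replicate block, 10 list genes passed in ISP cells, 0 in DN3a, 4 in γδ T cells and 24 between WT γδ and DN3a cells. The causes were not tested. Dim probe sets, such as that of Arrdc4 on ISP arrays, limit the folds that could be seen.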

Other observations

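Another probe set is annotated to both Txnip and Gm15441 and was not used above. On ISP arrays it read 5.27 ± 0.13 in WT (SD, n = 4) and 5.65 ± 0.30 in Rptor-/- cells (SD, n = 3). The ISP groups overlapped, with WT arrays up to 5.40 and Rptor-/- arrays from 5.38. In DN3a cells it read 6.15 ± 0.14 and 6.48 ± 0.10 (n = 3 each), without overlap of the groups. In γδ T cells it read 6.22 ± 0.08 and 6.30 ± 0.16 (n = 3 each), with overlap. Signal of the 2 genes cannot be told apart on it.

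On the 7 ISP arrays 13753 of 22180 genes (62.0%) had exactly the same value on at least 2 arrays, against 178 (0.803%) on the 12 other arrays. Of the members, 2 had such an exact pair on ISP arrays, and no member had one on the others. Rounded to 2 decimals, ties on ISP arrays were Arrdc2 (WT array 3 and Rptor-/- array 3), Arrdc3 (WT array 2 and Rptor-/- array 1) and Arrdc4 (Rptor-/- arrays 1 and 3). Which of these were exact is not shown.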
